A study of Mus musculus with 4 samples.

Results

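Described here are 10 genes of the immediate-early class, chosen by name: Egr1, Egr3, Klf2, Klf4, Klf6, Nr4a1, Nr4a2, Ier2, Dusp1 and Zfp36. All 10 were found, each once, among the 15255 genes measured. RNA was sequenced from freshly isolated mouse bone marrow LSK cells, which lack lineage markers, carry Sca-1 and c-Kit, and hold haematopoietic stem and early progenitor cells. The groups were 2 libraries labelled Afg3l2 WT and 2 labelled Afg3l2 KO, and all were washed in PBS with no other treatment named. Afg3l2 encodes one of the subunits of m-AAA, a quality-control protease in the inner membrane of mitochondria. The labels used here do not give how the knockout was made, the ages of the mice, or whether libraries came from separate or pooled animals, so p-values measure only the spread between these libraries.

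Immediate-early genes are switched on within minutes of a signal, by transcription factors that are already present in the cell, and most of their mRNAs are short-lived. Mitogen-activated protein (MAP) kinases relay many of these signals to serum response factor and CREB at the promoters. The EGR and KLF families are zinc-finger transcription factors and the NR4A family are orphan nuclear receptors. In mouse haematopoietic stem cells Egr1 and NR4A genes are known for their part in quiescence, and Klf4 and Klf2 are known in monocytes and in resting lymphocytes. The same class also answers to handling and sorting of cells.

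Afg3l2 RNA checked the labels. It stood at 79.6 and 86.0 CPM (normalized read counts, as deposited by the authors) in the wild-type libraries. In the knockout libraries it stood at 36.7 and 30.1 CPM, replicate 1 first here and throughout. Afg3l2 RNA thus fell (log2 fold change -1.29 ± 0.16 SE, limma adjusted p = 0.0115). Libraries held 16522338 to 17271936 reads in genes, so that 1 read was worth 0.0566 to 0.0603 CPM. Xist, from the inactive X chromosome, was at 0.113 and 15.7 CPM in the libraries numbered 1 and at 889 and 1004 CPM in those numbered 2, wild type first. Ddx3y, from the Y chromosome, was at 83.4 and 72.4 CPM in the libraries numbered 1, wild type first. In those numbered 2 it was lower but present, at 5.04 and 3.50 CPM. The replicate number therefore goes with sex-linked RNA, and knockout-to-wild-type ratios are also given within each number. LSK identity markers were present: Kit stood at 223 to 341 CPM and Ly6a, which encodes Sca-1, at 57.1 to 95.4 CPM.

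Of the 10 genes, Klf2, Klf4 and Zfp36 fell in the knockout and 0 rose (limma on log2(CPM + 1), 2 against 2 libraries, p adjusted by Benjamini-Hochberg across the table, under 0.05). Over all 15255 genes 0.839% were called lower and 1.58% higher. Egr1, Dusp1 and Ier2 were also lower in both knockout libraries but missed that threshold. Klf6 was lower and Nr4a2 higher in both knockout libraries, the groups of Nr4a1 and Egr3 overlapped, and none of these genes passed. The 10 genes together took 931 and 610 CPM in the wild-type libraries against 298 and 270 CPM in the knockout libraries. In bulk samples, fewer cells that make an RNA and less of that RNA per cell cannot be told apart.

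**Figure D1:**
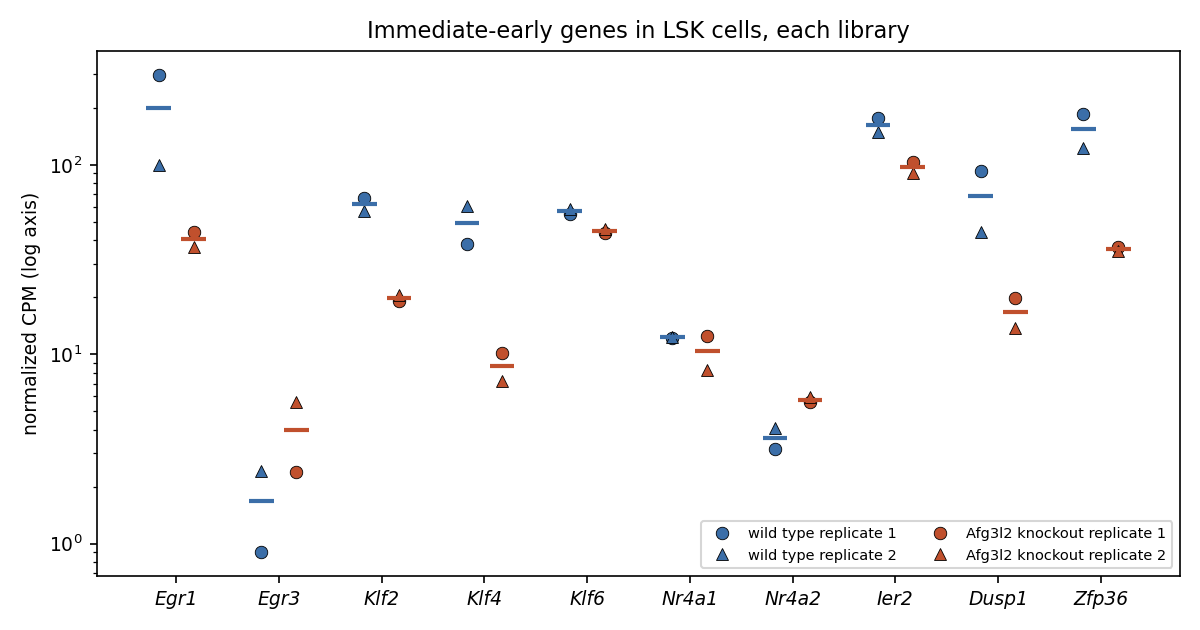
Normalized CPM of the 10 genes in each library, on a log axis; circles are replicate 1, triangles replicate 2, and bars the mean of the 2 libraries of a group. The knockout points of Egr1, Klf2, Klf4, Dusp1, Ier2, Klf6 and Zfp36 lie below both wild-type points, and the 2 wild-type points of Egr1 lie far apart, at 299 and 99.3 CPM.

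Zfp36 encodes tristetraprolin, which binds AU-rich elements in mRNAs and speeds their decay. Its level was 186 and 123 CPM in the wild-type libraries against 37.0 and 35.2 CPM in the knockout libraries. Both knockout libraries lay far below both wild-type libraries and close to each other. The mean went from 154 ± 44.5 to 36.1 ± 1.25 CPM (SD, n = 2 libraries each), and their ratio was 0.234. On the log2 scale the difference was -2.03 ± 0.20 (SE; limma adjusted p = 0.00723). Within the libraries numbered 1 the ratio was 0.199, and within those numbered 2 it was 0.287.

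Klf4, a zinc-finger factor known for its part in monocyte differentiation and in reprogramming to pluripotency, had the lowest ratio of the 10 genes. It stood at 38.2 and 60.9 CPM in the wild-type libraries against 10.2 and 7.24 CPM in the knockout libraries. Here replicate 2 was the higher of the wild-type libraries, the opposite of Zfp36, and the groups did not overlap. The mean went from 49.6 ± 16.1 to 8.70 ± 2.06 CPM, with 0.176 as their ratio (log2 fold change -2.36 ± 0.28 SE, limma adjusted p = 0.0101). The ratio was 0.266 within number 1 and 0.119 within number 2.

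Klf2, which in mouse T cells maintains quiescence, had the smallest SE of the 3 called genes. It stood at 66.6 and 57.1 CPM in the wild-type libraries against 19.0 and 20.6 CPM in the knockout libraries. The knockout libraries were nearly level and under both wild-type libraries. The mean went from 61.8 ± 6.74 to 19.8 ± 1.11 CPM, with 0.320 as their ratio (log2 fold change -1.59 ± 0.17 SE, limma adjusted p = 0.00861). The ratio was 0.285 within number 1 and 0.361 within number 2. The calls of Klf2, Klf4 and Zfp36 were lost when either knockout library was left out: the lowest limma adjusted p was then 0.0503 without knockout replicate 1 and 0.126 without knockout replicate 2, while the log2 fold changes of these 3 genes stayed between -2.69 and -1.48 over all 4 omissions.

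Egr1, the zinc-finger factor used most often as a marker of recent stimulation, stood at 299 and 99.3 CPM in the wild-type libraries against 44.0 and 36.9 CPM in the knockout libraries. Wild-type replicate 1 held 3.01 times the level of wild-type replicate 2, while the knockout libraries differed by a factor of 1.19. The groups did not overlap, with means of 199 ± 141 and 40.4 ± 5.01 CPM and a ratio of 0.203. With that spread the log2 fold change of -2.07 ± 0.64 (SE) did not pass (limma adjusted p = 0.226). Its size turned on wild-type replicate 1: without that library the log2 fold change was -1.28, and without wild-type replicate 2 it was -2.86. Without knockout replicate 1 it was -2.20, and without knockout replicate 2 it was -1.95. A test with 1 library left in a group cannot measure the spread within that group. No p-value of Egr1 is therefore given for these fits. Within number 1 the ratio was 0.147 and within number 2 it was 0.371.

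Dusp1, a phosphatase that switches MAP kinases off, had the same order of libraries. It stood at 92.6 and 44.3 CPM in the wild-type libraries against 19.9 and 13.7 CPM in the knockout libraries. Wild-type replicate 1 was 2.09 times wild-type replicate 2, and all knockout values lay below. The ratio of means was 0.246, and the log2 fold change of -1.89 ± 0.39 (SE) did not pass (limma adjusted p = 0.0873). The log2 fold change was -1.37 without wild-type replicate 1 and -2.42 without wild-type replicate 2. Without knockout replicate 1 it was -2.15, and without knockout replicate 2 it was -1.64.

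Ier2, a small nuclear protein gene that responds to growth factors, stood at 177 and 149 CPM in the wild-type libraries against 104 and 91.0 CPM in the knockout libraries. The groups were well apart, yet the difference was smaller than for the 5 genes Zfp36, Klf4, Klf2, Egr1 and Dusp1, with a ratio of 0.598. On the log2 scale it was -0.73 ± 0.15 (SE) and narrowly missed the threshold (limma adjusted p = 0.0541). It was -0.61 without wild-type replicate 1 and -0.86 without wild-type replicate 2. Without knockout replicate 1 it was -0.83, and without knockout replicate 2 it was -0.64. The ratios within number 1 and number 2 were 0.587 and 0.612.

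Klf6, a broadly expressed KLF factor, stood at 55.2 and 58.6 CPM in the wild-type libraries against 43.7 and 46.0 CPM in the knockout libraries. Its groups did not overlap, with a ratio of 0.788, a log2 fold change of -0.34 ± 0.14 (SE) and a limma adjusted p = 0.241. Nr4a1, which encodes the receptor Nur77, stood at 12.2 and 12.4 CPM in the wild-type libraries against 12.4 and 8.27 CPM in the knockout libraries, and its groups overlapped. Its log2 fold change was -0.26 ± 0.27 (SE; limma adjusted p = 0.636), and without knockout replicate 2 it was 0.01. Neither gene passed the threshold in this test.

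Nr4a2, which encodes the receptor Nurr1, and Egr3, a relative of Egr1 known from lymphocytes, pointed the other way at low levels. Nr4a2 stood at 3.17 and 4.09 CPM in the wild-type libraries against 5.58 and 5.91 CPM in the knockout libraries, from 56 to 98 reads a library. Its log2 fold change was 0.55 ± 0.31 (SE; limma adjusted p = 0.348). Egr3 stood at 0.905 and 2.43 CPM in the wild-type libraries against 2.38 and 5.61 CPM in the knockout libraries, from 16 to 93 reads. Its groups overlapped, replicate 2 was the higher in each, and the log2 fold change was 0.89 ± 0.45 (SE; limma adjusted p = 0.308). Leaving out wild-type replicate 1 gave 0.46, wild-type replicate 2 1.31, knockout replicate 1 1.37 and knockout replicate 2 0.40.

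Counted over the 10 genes, 7 were lower in both knockout libraries than in both wild-type libraries, 1 was higher and 2 overlapped, where 26.9% and 27.2% of all genes did not overlap in those directions. At an unadjusted limma p under 0.05 there were 6 lower and 0 higher, and edgeR quasi-likelihood, DESeq2 and limma-voom also called 0 of the 10 genes higher. Over all genes 9.79% were lower and 11% higher at that unadjusted p. The median log2 fold change of the 10 genes was -1.16, and that of all 15255 genes was -0.02. In the authors' deposited table, whose fold changes were matched by a refit with the libraries paired by number, Egr1, Klf2, Klf4, Ier2, Dusp1 and Zfp36 were lower at an FDR under 0.05, 6 of 10 genes against 5.47% of all genes. The count of the 10 genes called lower, with the share of all genes called lower in the same fit, was 3 with a pseudocount of 0.1 CPM (0.806% of all genes), with a stricter filter on low values (0.985%), with median-of-ratios scaling (0.977%), by edgeR quasi-likelihood (0.61%) and by limma-voom (0.531%). It was 6 by DESeq2 (3.59%), and 5 with the replicate number as a block in limma (5.02%) or edgeR (5.03%). Without wild-type replicate 1 it was 5 (2.46%) and without wild-type replicate 2 it was 6 (2.55%). The count was 0 without knockout replicate 1 (0.0983%) and 0 without knockout replicate 2 (0%). The FDR of the 6 genes lower in the authors' test ran from 5.14e-20 for Zfp36 to 0.00176 for Egr1 in the authors' deposited table, and Klf6, Nr4a1, Nr4a2 and Egr3 did not pass there either.

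**Figure D2:**
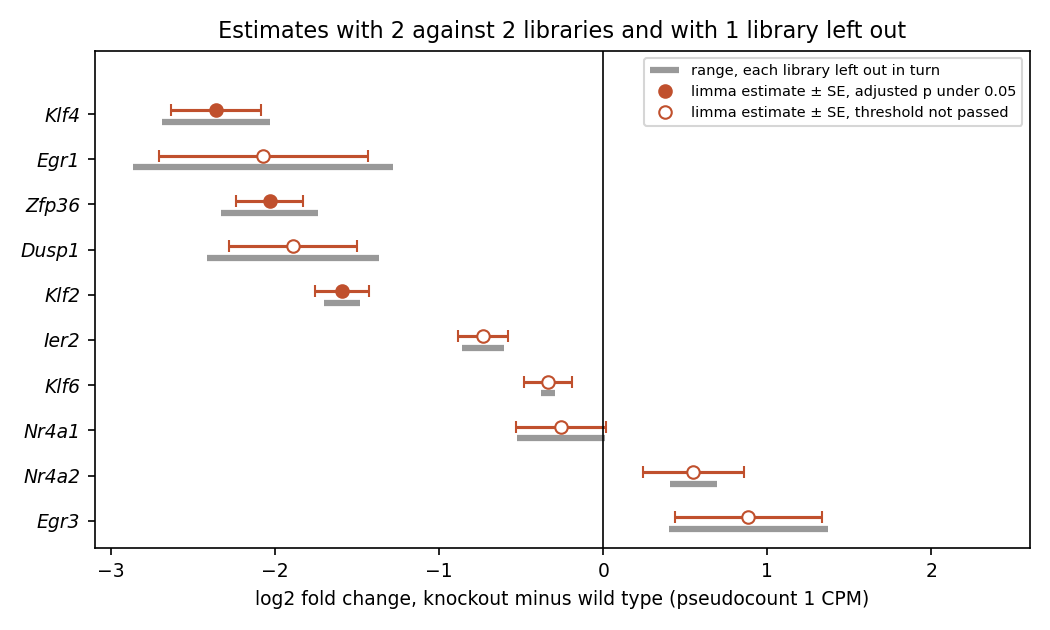
Log2 fold change of each gene, knockout minus wild type, with its SE; filled points passed the limma threshold, and grey bars span the estimates with each library left out in turn. Klf4, Zfp36 and Klf2 are filled, Egr1 has the widest bar, from -2.86 to -1.28, and the bar of Nr4a1 reaches 0.01.

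For a rough comparison between genes, levels were divided by the kilobases of exon of each gene, pooled over all its annotated transcripts. On this measure Ier2 was the most abundant in both groups, at 107 ± 13.3 CPM per kilobase in wild-type and 64.1 ± 6.07 in knockout cells (SD, n = 2 libraries each). In wild-type cells it was followed by Egr1 and Zfp36, both at 44.4, Klf2 at 33.5, Dusp1 at 20.7, Klf4 at 16.3, Klf6 at 13.0, Nr4a1 at 3.51, Nr4a2 at 0.895 and Egr3 at 0.379 CPM per kilobase. The library values of Egr1, Zfp36 and Klf2 overlapped from one to the next, as did those of Dusp1, Klf4 and Klf6. In knockout cells Klf2, Zfp36 and Klf6 came next after Ier2, at 10.7, 10.4 and 10.2, with overlapping library values, ahead of Egr1 at 9.01, Dusp1 at 5.07, Nr4a1 at 2.95 and Klf4 at 2.85 CPM per kilobase; library values of Nr4a1 and Klf4 overlapped. On this measure Klf6, below both in wild-type cells, was level with Klf2 and Zfp36 in the knockout. The pooled length was 3470 bases for Zfp36, 3311 for Dusp1 and 3509 for Nr4a1, against main mRNAs of 2790, 1990 and 2477 bases. The order by main mRNA length was not computed and could differ for these genes.

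The promoters of the 3 called genes, of Dusp1 and of Nr4a1, which did not pass, are shown to compare the known entry points of immediate-early signals. Sequences are from RefSeq on GRCm38.p6, 250 bases before to 50 after the start, written 5′ to 3′ along the gene. Of the 10 genes 7 had one. Egr1, Egr3 and Ier2 had none, so their promoters were not searched. Capitals mark matches, on either strand, to the CArG box of serum response factor, the cyclic AMP response element TGACGTCA, the EGR site GCGNGGGCG, the AP-1 site TGANTCA and the NR4A site AAAGGTCA, and on the gene's strand to TATAAA; the shorter half-site TGACG is counted but not capitalised.
Zfp36 promoter, chr7:28379179-28379478, minus strand: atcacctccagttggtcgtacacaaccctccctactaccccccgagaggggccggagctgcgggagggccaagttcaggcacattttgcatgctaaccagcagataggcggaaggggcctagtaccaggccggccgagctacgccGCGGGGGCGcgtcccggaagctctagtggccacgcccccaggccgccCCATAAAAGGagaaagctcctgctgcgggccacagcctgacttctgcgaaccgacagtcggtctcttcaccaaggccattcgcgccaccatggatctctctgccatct
Klf4 promoter, chr4:55532426-55532725, minus strand: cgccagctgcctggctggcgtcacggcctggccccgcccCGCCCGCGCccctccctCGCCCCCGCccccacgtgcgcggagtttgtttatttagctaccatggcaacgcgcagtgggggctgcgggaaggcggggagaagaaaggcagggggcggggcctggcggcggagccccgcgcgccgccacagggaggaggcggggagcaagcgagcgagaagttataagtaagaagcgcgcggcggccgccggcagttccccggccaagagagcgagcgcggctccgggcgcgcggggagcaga
Klf2 promoter, chr8:72318812-72319111, plus strand: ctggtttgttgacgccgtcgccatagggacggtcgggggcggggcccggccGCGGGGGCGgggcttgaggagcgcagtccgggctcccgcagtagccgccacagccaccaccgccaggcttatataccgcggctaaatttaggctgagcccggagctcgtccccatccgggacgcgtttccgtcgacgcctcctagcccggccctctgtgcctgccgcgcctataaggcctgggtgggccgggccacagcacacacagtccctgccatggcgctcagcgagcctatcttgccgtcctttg
Dusp1 promoter, chr17:26508423-26508722, minus strand: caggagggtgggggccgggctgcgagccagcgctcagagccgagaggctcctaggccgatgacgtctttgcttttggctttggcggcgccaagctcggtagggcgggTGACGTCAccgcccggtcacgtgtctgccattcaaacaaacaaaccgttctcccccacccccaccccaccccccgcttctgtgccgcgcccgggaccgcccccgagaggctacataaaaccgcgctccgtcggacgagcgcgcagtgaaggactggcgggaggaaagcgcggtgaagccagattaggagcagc
Nr4a1 promoter, chr15:101266596-101266895, plus strand: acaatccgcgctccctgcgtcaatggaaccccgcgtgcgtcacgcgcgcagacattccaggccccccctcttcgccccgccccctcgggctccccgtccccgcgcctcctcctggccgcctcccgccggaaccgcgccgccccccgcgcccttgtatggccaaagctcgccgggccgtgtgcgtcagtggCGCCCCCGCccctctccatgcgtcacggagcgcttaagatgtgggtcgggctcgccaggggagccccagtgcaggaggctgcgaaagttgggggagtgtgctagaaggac

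The only CArG box among the 7 promoters was in Zfp36, from -58 to -49 relative to the start, and 1.63% of all 32851 promoters of that length and 1.22% of the 13483 promoters of measured genes held one. The only complete TGACGTCA was in Dusp1, from -143 to -136, against 1.79% of all promoters and 2.94% of those of measured genes. An EGR site was found in 5 of 7, namely Zfp36, Klf4, Klf2, Nr4a1 and Nr4a2, against 5.55% of all promoters and 10.01% of those of measured genes. The 7 promoters were rich in G and C, at 63.0% to 81.7% with a median of 69.3%, against a median of 52.7% over all promoters. The median over the promoters of measured genes was not computed. The EGR site, its N apart, is itself made of those letters. The half-site TGACG, which every complete element also contains, was in 5 of 7 against 20.8% of all promoters and 30.1% of those of measured genes, and Nr4a1 and Nr4a2 held 4 each. No promoter of the 7 held the AP-1, NR4A or TATAAA letters, which 7.81%, 1.51% and 8.32% of all promoters and 5.30%, 1.16% and 4.49% of those of measured genes did. These are matches of letters and say nothing of binding in these cells. EGR sites stood in the called genes Zfp36, Klf4 and Klf2 and also in Nr4a1 and Nr4a2, which did not pass.

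**Figure D3:**
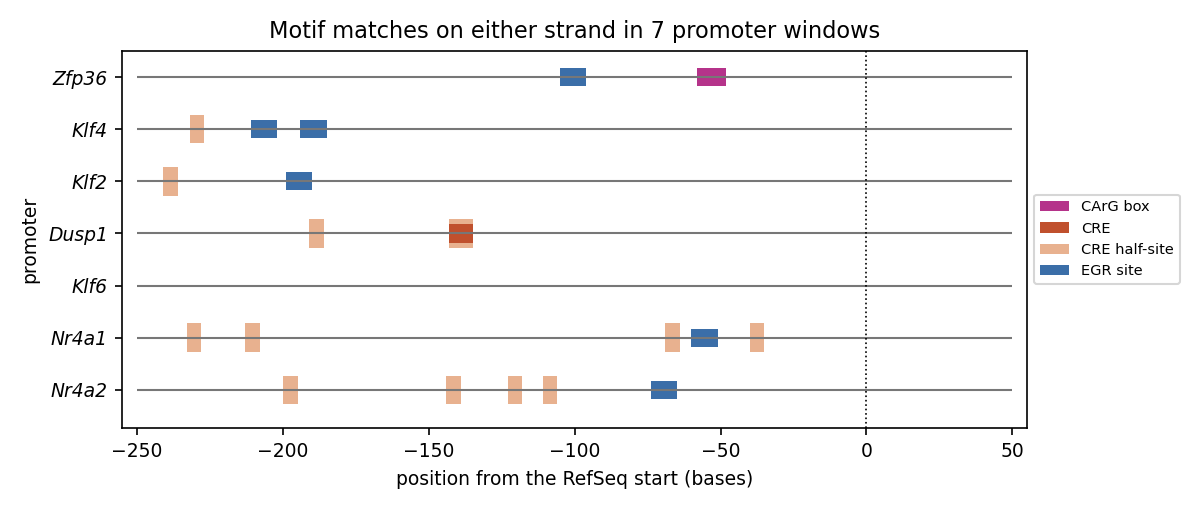
Positions of motif matches in the 7 promoter windows, in bases from the RefSeq start (dotted line); each bar spans the matched bases on either strand. EGR sites appear in 5 rows, the CArG box in Zfp36 and the complete cyclic AMP response element in Dusp1, and Klf6 has no match.

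The genes had few exons. All 10 had no more exons in their main transcript than the median of 9 over 12568 measured protein-coding genes, with a median of 3.5 and a range of 1 (Ier2) to 8 (Nr4a2). Their median genomic span, taken over all annotated transcripts of a gene, was 5368 bases, against 23641 bases, with 9 of 10 under that median. The record of Dusp1 was above it at 56539 bases, from 26505590 to 26562128 on chromosome 17, minus strand. The RefSeq start of Dusp1 used above lies between 26508423 and 26508722, and the span of its main transcript was not computed. The median mRNA length was close, at 2910 and 2944 bases. On GRCm38 (GENCODE M21), Zfp36 (ENSMUSG00000044786) lies on chromosome 7 from 28376784 to 28380253, Klf4 (ENSMUSG00000003032) on chromosome 4 from 55527143 to 55532466, and Klf2 (ENSMUSG00000055148) on chromosome 8 from 72319033 to 72321656; all 3 are protein-coding. Exons of Zfp36 overlap those of Gm44710 and exons of Dusp1 overlap those of Ergic1, both on the opposite strand, and reads whose strand is not stated cannot be told apart there.

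The AU-rich core TATTTAT, the element that tristetraprolin reads in RNA (with U for T), was present in the annotated 3′ untranslated region of 5 of the 10 genes, Zfp36, Klf2, Dusp1, Klf6 and Nr4a2, against 27.5% of 12411 measured protein-coding genes. Over the 6872 genes with regions between 543 and 3111 bases, the range of the 10 genes, the share was 31.3%. The longer form TTATTTATT was in Zfp36 and Dusp1, against 7.07% of measured genes. For 4 of these genes 1 site each is printed here with the core in capitals, from GENCODE M21 transcripts on the mRNA strand, because such sites are the part of the message through which decay is known to act.
Zfp36 3′ untranslated region, bases 579 to 607 of 774: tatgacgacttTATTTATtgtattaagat
Dusp1 3′ untranslated region, bases 93 to 121 of 690: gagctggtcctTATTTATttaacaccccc
Klf2 3′ untranslated region, bases 70 to 98 of 737: aacagactgcTATTTATtggaccttagga
Nr4a2 3′ untranslated region, bases 584 to 612 of 1326: attttgtgccTATTTATgaataaatatta

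Klf2, Klf4 and Zfp36 do not all hold this element: Klf4 held 0 copies of the core, Klf2 held 1 and Zfp36 held 3. Dusp1 also held 3, Egr1, Egr3, Nr4a1 and Ier2 held 0, and Klf6 and Nr4a2, which did not pass, held 2 and 1.

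Other immediate-early genes were read from a list of 44, of which 40 were measured. Of these 6 fell and 1 rose by limma, against 0.839% and 1.58% of all genes, and 33 did not pass; the median log2 fold change was -0.43. The 4 with the smallest p were Gem, Rhob, Fos and Rgs2. Rhob, a small GTPase, stood at 189 and 188 CPM in the wild-type libraries against 66.1 and 54.6 CPM in the knockout libraries, a ratio of 0.320 (limma adjusted p = 0.00599). Fos, a subunit of AP-1, stood at 377 and 209 CPM in the wild-type libraries against 47.7 and 42.6 CPM in the knockout libraries, with the same higher wild-type replicate 1 as Egr1, Dusp1 and Zfp36 (log2 fold change -2.61, limma adjusted p = 0.0144). Rgs2, a regulator of G protein signalling, reached a ratio of 0.481 (limma adjusted p = 0.0144). Jun, Ier3 and Junb, named after their values were seen, were the other genes that fell. Their log2 fold changes were -2.67, -1.85 and -1.02 (limma adjusted p = 0.0168, 0.0331 and 0.0410). The call of Ier3 was lost by limma-voom (adjusted p = 0.0771). That of Junb was lost by edgeR quasi-likelihood (adjusted p = 0.0504) and by limma-voom (adjusted p = 0.0556). Gem, also a small GTPase, went the other way, from 9.51 and 8.07 CPM in the wild-type libraries to 115 and 67.4 CPM in the knockout libraries, a ratio of 10.4 (limma adjusted p = 0.00599). Not all members of the class moved. Myc, also named after its values were seen, had a log2 fold change of 0.07 (limma adjusted p = 0.824).

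**Figure D4:**
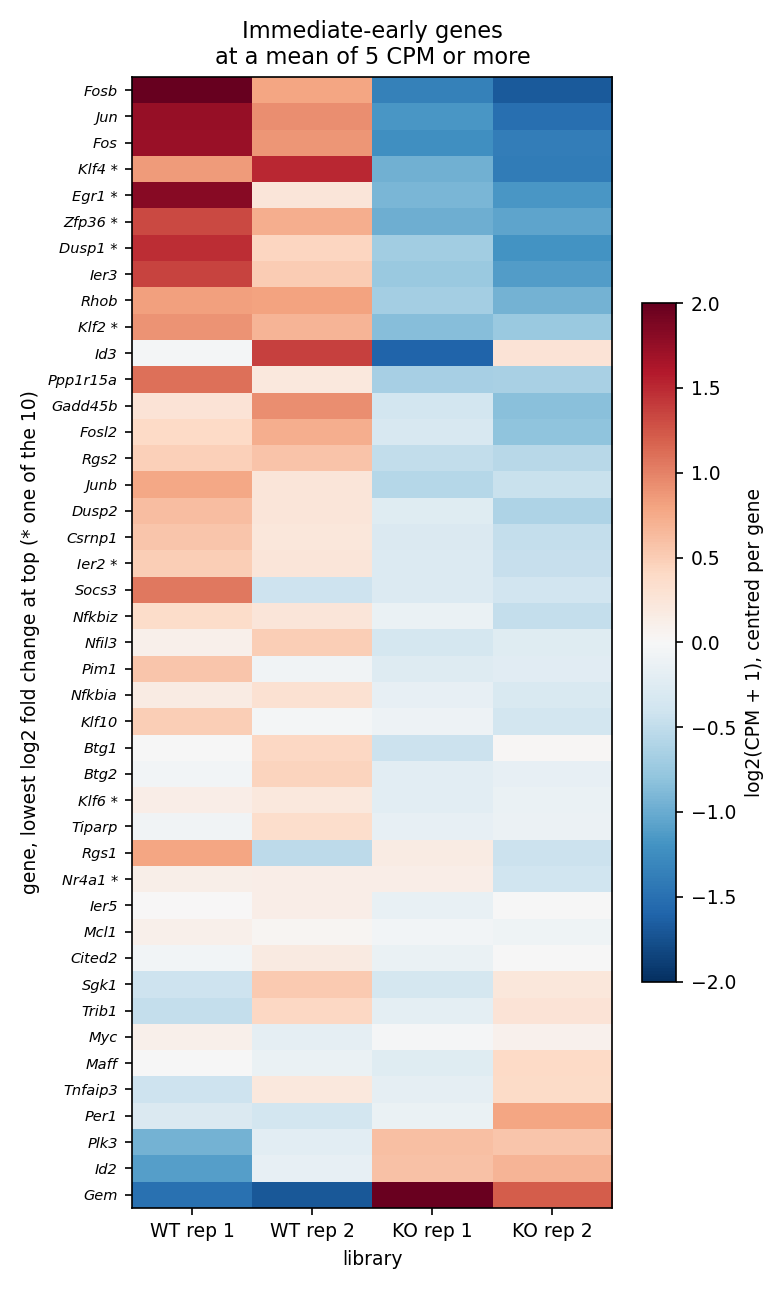
Log2(CPM + 1), centred per gene, of 43 immediate-early genes averaging 5 CPM or more in the 4 libraries, ordered by log2 fold change; an asterisk marks 8 of the 10 genes, and values beyond the ends of the scale take the end colour. Fos, Jun, Egr1 and Dusp1 are deepest red (highest) in wild-type replicate 1, Klf4 in wild-type replicate 2, and Gem is high in both knockout libraries.

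**Figure D5:**
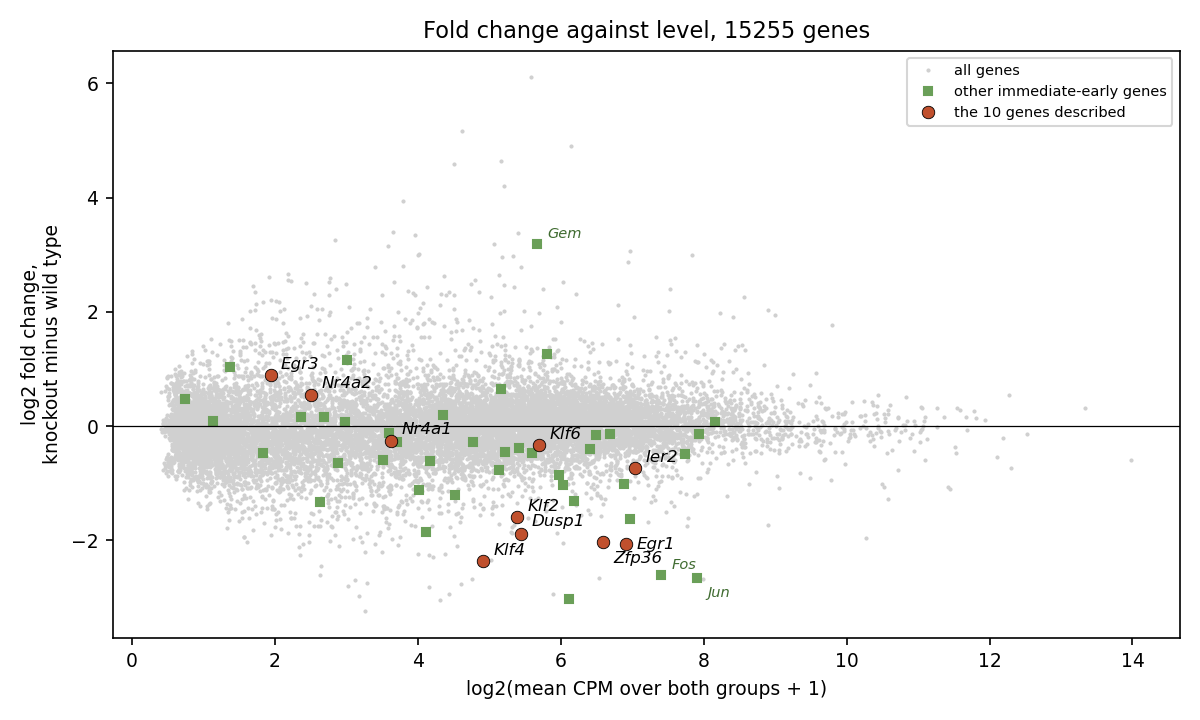
Log2 fold change, knockout minus wild type, against log2 of the mean CPM plus 1 for all 15255 genes (grey), the other measured immediate-early genes (squares) and the 10 genes described (circles). Klf4, Egr1, Zfp36, Dusp1 and Klf2 lie at the lower edge of the cloud, Ier2, Klf6 and Nr4a1 within or near it, and Egr3 and Nr4a2 above 0 at low levels.

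Among 23 measured relatives of the EGR, KLF, NR4A, IER, DUSP and ZFP36 families, 2 rose and 1 fell by limma. Over all genes 1.58% rose and 0.839% fell. The median log2 fold change of the relatives was 0.27. Klf1, the erythroid KLF factor, rose from 44.8 and 49.7 CPM in the wild-type libraries to 95.9 and 144 CPM in the knockout libraries, a ratio of 2.54 (limma adjusted p = 0.0239), against the ratios of 0.320 and 0.176 for Klf2 and Klf4. Dusp4, a nuclear MAP kinase phosphatase, rose from 1.02 and 1.31 to 6.30 and 5.13 CPM (limma adjusted p = 0.0448), unlike Dusp1. Its wild-type libraries held only 18 and 22 reads. Ier3, already named among the immediate-early genes, was the gene that fell. Dusp2, next by p, had a log2 fold change of -0.86 (limma adjusted p = 0.0662).

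Of 30 kinases and transcription factors upstream of these genes, 1 fell and 0 rose, against 2.42% of all genes called in either direction, with a median log2 fold change of -0.10. Rps6ka5, which encodes the kinase MSK1 that phosphorylates CREB and histone H3 at immediate-early genes, stood at 49.6 and 45.6 CPM in the wild-type libraries against 26.3 and 22.4 CPM in the knockout libraries, a ratio of 0.511 (limma adjusted p = 0.0344). Mapk3 (ERK1), Elk3, a ternary complex factor, and Rps6ka1 did not pass, at -0.84, -0.72 and -0.50 on the log2 scale (limma adjusted p = 0.0824, 0.125 and 0.199). Of 11 feedback inhibitors of the pathway 2 rose and 0 fell, against 1.58% and 0.839% of all genes. Spry4, an inhibitor of receptor tyrosine kinase signalling, rose from 0.453 and 0.949 CPM in the wild-type libraries to 5.999 and 5.97 CPM in the knockout libraries (limma adjusted p = 0.0239), and Dusp4 was the other. Both were low, with 8 and 16 reads of Spry4 and 18 and 22 of Dusp4 in the wild-type libraries. Spry4 did not pass by limma-voom (adjusted p = 0.0512), nor did Dusp4 by limma-voom (0.0706) or edgeR quasi-likelihood (0.0607). Spred1 and Spred2, inhibitors of the Ras pathway, did not pass, at 0.74 and 0.51 on the log2 scale (limma adjusted p = 0.0526 and 0.141).

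Of 9 measured mRNAs known as targets of tristetraprolin, 2 fell and 0 rose by limma, against 0.839% and 1.58% of all genes. Their median log2 fold change was -0.49. The chemokine gene Ccl3 stood at 11.0 and 9.55 CPM in the wild-type libraries against 1.66 and 2.35 CPM in the knockout libraries, a ratio of 0.195 (limma adjusted p = 0.0260), and Ier3 was the other. Ccl4 and Tnf did not pass, at -1.69 and -1.17 on the log2 scale (limma adjusted p = 0.0807 and 0.109). Of 7 measured genes listed as Klf2 targets, 1 fell, 0 rose and 6 did not pass by limma, with a median log2 fold change of -0.21. The list sets no direction of response to Klf2. Over all genes 0.839% fell and 1.58% rose. S1pr1, named after its values were seen and also known as a Klf2 target, had a log2 fold change of -0.03 (limma adjusted p = 0.967), and Thbd, Cd69 and Itgb7 did not pass, at -1.11, -0.27 and -0.20 on the log2 scale.

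Of 12 genes that respond to sorting and tissue dissociation, 1 fell and 0 rose, against 0.839% and 1.58% of all genes. Their median log2 fold change was -0.00. Hspd1, Dnajb1 and Hsp90aa1 did not pass, at 0.41, -0.42 and 0.35 on the log2 scale. Hspa1a, an inducible heat shock gene named after its values were seen, stood at 108 and 85.0 CPM in the wild-type libraries against 54.0 and 9.05 CPM in the knockout libraries (limma adjusted p = 0.414). Handling of the cells is not recorded per library, and its part in the lower levels of Klf2, Klf4 and Zfp36 was not tested.

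Of 10 measured markers of monocytes and macrophages 3 fell, 0 rose and 7 did not pass by limma, and no marker was at 0 in any library. For this and each marker list below, the limma shares over all genes were 0.839% lower and 1.58% higher. The monocyte and macrophage markers that fell were Cx3cr1, Ly86 and Csf1r, with ratios of 0.177, 0.358 and 0.314 (limma adjusted p = 0.00879, 0.0299 and 0.0404). All 3 calls were lost without either knockout library, and that of Csf1r also by edgeR quasi-likelihood (adjusted p = 0.0545), by limma-voom (0.0617) and with the replicate number as a block in limma (0.0862) or edgeR (0.132), and that of Ly86 by limma-voom (0.0606). Itgam, Ccr2 and Lyz2 were lower in both knockout libraries without passing, Ctss, Cd14 and Fcgr3 overlapped between groups, and Adgre1 lay the other way, with a log2 fold change of 1.30 and overlapping groups (limma adjusted p = 0.322). The summed level of the 10 markers was 466 and 931 CPM in the wild-type libraries against 364 and 277 CPM in the knockout libraries. Wild-type replicate 2 held the higher sum of these markers, as it did for Klf4, while replicate 1 held the higher levels of Egr1, Dusp1 and Zfp36. Of 8 dendritic cell markers 3 fell and 1 rose, with sums of 1028 and 1196 CPM in the wild-type libraries against 1115 and 1114 CPM in the knockout libraries. Neutrophil markers summed to 3608 and 12754 CPM in the wild-type libraries against 4270 and 2791 CPM in the knockout libraries, with 0 of 8 called by limma and 0 at an unadjusted p under 0.05, so wild-type replicate 2 stood apart. Of 6 erythroid markers 3 rose and 0 fell. B cell markers summed to 184 and 497 CPM in the wild-type libraries against 67.1 and 286 CPM in the knockout libraries. The 9 markers of LSK and stem cells, with 0 called by limma and 1 lower and 1 higher at an unadjusted p under 0.05, summed to 1637 and 945 CPM in the wild-type libraries against 953 and 629 CPM in the knockout libraries, highest in wild-type replicate 1 as was Egr1. In limma blocked by number, Cd34, Flt3 and Hlf were called lower (adjusted p = 0.000931, 0.00129 and 0.00679) and Ly6a higher (0.0494). That fit called 5.02% of all genes lower, and 1013 of 15255 genes higher. Cd34 stood at 580 and 305 CPM in the wild-type libraries against 268 and 119 CPM in the knockout libraries. The part of these cells in the levels of the 10 genes was not tested.

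The 5 other genes, among those averaging 10 CPM or more, whose profile over the 4 libraries was most like the mean profile of the 10 genes were Cd93, Adam11, Ypel3, Castor2 and Rps6ka5. Likeness was the Euclidean distance between centred log2(CPM + 1) values, which was 0.0160, 0.0872, 0.101, 0.110 and 0.120. The mean profile itself was 0.58 and 0.40 in the wild-type and -0.45 and -0.53 in the knockout libraries. Cd93, a surface glycoprotein of early progenitors, went from a mean of 220.0 to 111 CPM.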

How the data were processed

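RNA-seq was made from 2 wild-type and 2 Afg3l2 knockout libraries of poly(A) RNA, read single-end on an Illumina instrument, per the labels' protocols. The submitters' processing notes name STAR 2.7.10a, featureCounts 2.0.1 and GRCm38.p6; annotation release, strand and counting settings are not given in the sources used here. The deposited values are a normalized signal per gene and library, named CPM per the file headers; the columns do not share 1 total, so a scaling beyond library size was read from the values and is not stated. Each value, divided by what 1 read is worth in its library, came out whole for 100% of values, within 0.01. The authors' log2 fold change, their likelihood ratio score, and their p-values and FDR are also in the deposited table; refitting them in edgeR 4.0.16 (likelihood ratio, blocked by replicate number) gave log2 fold changes within 3.63e-08 of them.

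The main test was limma 3.58.1 (R 4.3.3) on log2(CPM + 1), with trend and robust moderation, no replicate block, two-sided, leaving 2 residual degrees of freedom. Calls required p below 0.05 after Benjamini-Hochberg adjustment across 15255 genes. Fold ratios are of mean CPM; the pseudocount shortens log2 fold changes of low genes. The members and lists were chosen with earlier results of these data known. Named were all 10 genes, up to 4 genes of smallest p per list, and the 5 likest profiles. The gene that fell in each of the Klf2 target and stress lists is not reported by name here. Alternatives were a pseudocount of 0.1 CPM, a stricter filter (1 CPM or more in each library of either group, averaging 20 reads, leaving 13304 genes and all 10 members), median-of-ratios scaling, edgeR quasi-likelihood, DESeq2 1.42.0 and limma-voom on the recovered reads, replicate blocks, and each library left out. The code of the fits was tested on simulated data with a small, constant spread, which does not measure power in these libraries. Positions, exons and untranslated regions are from GENCODE M21, which held 15232 of the 15255 identifiers without version. The main transcript was the longest best-supported APPRIS principal one.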

Additional observations from a re-analysis of the deposited data

How the results depend on the processing

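The counts of genes lower and higher, 128 and 241 of 15255 by limma, were 548 and 673 by DESeq2, 766 and 1013 by limma with the replicate block, and 768 and 1021 by edgeR quasi-likelihood with the block; limma-voom called 81 lower. Of the 10 genes 3 were called lower, against 6 by DESeq2 (adding Egr1, Ier2 and Dusp1) and 5 in both fits with the block (adding Ier2, adjusted p = 0.00708 in limma and 0.00516 in edgeR, and Dusp1, 0.001 and 0.000473). The labels do not say that the numbers pair the libraries; same-numbered libraries deviated together with a correlation of 0.286 over 13795 genes. With 1 library left out, the lone library of a group was assumed to vary like the others; 0 to 389 genes were lower, 0 to 679 higher, and 0 to 6 of the 10 lower, the 0 without either knockout library. The median log2 fold change of the 10 then ran from -1.28 to -0.94, and that of Nr4a1 from -0.52 without knockout replicate 1 to 0.011 without knockout replicate 2, where it turned. Called genes in the lists, by limma, DESeq2, limma with the block and edgeR with the block, were 7, 14, 15 and 14 other immediate-early genes (0 to 15 with a library left out), 3, 5, 7 and 8 relatives (0 to 4; limma-voom 1), 1, 3, 2 and 3 upstream factors (0 to 2), 1, 2, 2 and 2 Klf2 targets (0 to 1) and 1, 2, 4 and 4 stress genes (0 to 2). Tristetraprolin targets numbered 2, 4 by DESeq2, 4 by limma with the block and 1 by limma-voom (0 to 4). Feedback inhibitors numbered 2, but 1 with a pseudocount of 0.1 CPM or edgeR quasi-likelihood, 0 by limma-voom, 4 by limma with the block and 5 by edgeR with the block (0 to 2). The causes were not tested. Over 12 alternatives and the 10 genes, 101 of 120 log2 fold changes kept their direction and side of the threshold. Precision is limited by 2 residual degrees of freedom and, for Egr3 at 16 to 93 reads and Nr4a2 at 56 to 98 reads a library, by depth as well.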
